A study of Xenopus laevis with 6 samples.

Results

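Accessible chromatin regions with a single summit were followed from stage 10 to stage 12 in ectoderm of the frog Xenopus laevis. The regions described here are called single-summit pairs. Each consists of 1 interval listed at stage 10 and 1 interval listed at stage 12 that overlap by at least 1 bp and overlap no other interval of the opposite list. Each interval carries exactly 1 summit and is under 1500 bp wide, and both lie on 1 of the 18 assembled chromosomes. The lists held 2540 such pairs among 27293 one-to-one pairs. They made up 6.32% of the 40211 stage 10 regions on chromosomes (95% Wilson interval 6.08% to 6.56%) and 4.61% of the 55045 stage 12 regions (4.44% to 4.79%). Intervals of this kind cover counting error only.

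The samples were 6 ATAC-seq libraries of animal caps, pieces of prospective ectoderm that were cut from embryos at stage 9 and cultured until stage 10, the early gastrula, or until stage 12, the late gastrula. Each stage had 3 libraries of 2 explants, read as paired ends of 100 nucleotides, and no treatment or genotype is labelled. The deposited values are 1 list of regions per stage, so no value belongs to a single library, and no difference between the stages below has a replicate check. Markers of ectoderm could not be examined, because no gene annotation of the files' build, xenLae2, was used here. For the same reason regions are given by position, without the gene, exon or intron they may lie in and without sequence.

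In ATAC-seq the transposase Tn5 inserts adapters where DNA is not covered by nucleosomes or other proteins, and reads pile up over such openings. A promoter or enhancer bound by transcription factors typically appears as an opening flanked by nucleosomes, and the base with the tallest pileup is called its summit. Peak callers report several summits where an opening has several local maxima. A region with 1 summit is therefore the simplest shape in a list. Animal caps of Xenopus are widely used because the isolated ectoderm goes on to form epidermis unless it is induced to other fates.

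Signal was measured at the summit. The read pileup and local background of each summit were solved from its fold enrichment and its −log10 p in the authors' lists. The most common background of a list, its floor, was 2.204 reads at stage 10 and 4.701 reads at stage 12. Pileups are given over these floors, because the floor ratio of 2.13 is an estimate of how much deeper the stage 12 list is. The median pileup of the single-summit pairs was 66 reads at stage 10 and 142 reads at stage 12. A pileup of this size has an exact Poisson 95% interval of 51.0 to 84.0 reads at stage 10 and of 120 to 167 reads at stage 12, for counting error alone.

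Most regions with a single summit did not form such a pair. At stage 10, 9548 regions on chromosomes (23.7%) had 1 summit, and 4128 of them (43.2%) overlapped no stage 12 region, against 15.8% of the regions with several summits. At stage 12, 11402 regions (20.7%) had 1 summit, and 7582 of them (66.5%) overlapped no stage 10 region, against 40.1% of those with several. Among one-to-one pairs, 4242 had 1 summit at stage 10, and 2542 of these had 1 summit at stage 12 too (59.9%, 95% Wilson interval 58.4% to 61.4%). Another 1700 pairs went from 1 summit to several, and 965 went from several to 1. The remaining 22086 one-to-one pairs had several summits at both stages. The rule sets which regions count as pairs, and the lists are of unequal depth. The part of depth in these counts was not tested, and they are given as a description.

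The summit stayed at nearly the same base. The median absolute shift of the summit was 5 bp (5th to 95th percentile 0 to 30 bp), and the largest was 108 bp. The summit lay within 10 bp in 1955 single-summit pairs, 77.0% (95% Wilson interval 75.3% to 78.6%), where the background over all 27293 one-to-one pairs was 57.5%. It lay at the very same base in 199 pairs (7.83%), against a background of 4.48%. A shift over 50 bp was seen in 44 pairs and one over 100 bp in 1. The shift had no preferred direction, with 1179 summits at higher and 1162 at lower coordinates at stage 12.

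Other one-to-one pairs, compared by the summit with the highest −log10 p at each stage, had a median shift of 8 bp. Their shifts had a long tail, with a 90th percentile of 209 bp against 19 bp in the single-summit pairs. When the nearest summit of the other stage was taken instead, the median shift of the other pairs was 6 bp and the 90th percentile 24 bp, and 70.8% lay within 10 bp. Single-summit pairs offer only 1 summit at each stage, so the choice does not arise. As a share of the narrower interval, the median shift was 2.67% in single-summit pairs and 1.58% in the other pairs, whose intervals are wider. No test was made, since the summits come from the intervals that chose the pairs.

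**Figure D1:**
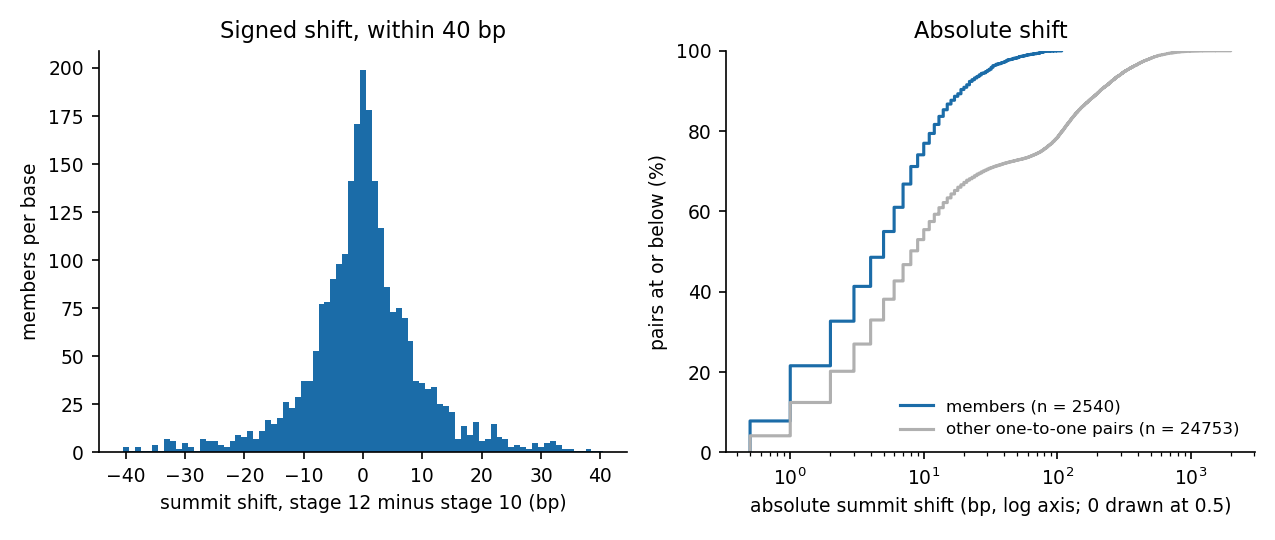
Summit shift between the stages. Left, number of single-summit pairs (labelled members) at each signed shift in bp, stage 12 minus stage 10, within 40 bp. Right, cumulative percentage of pairs against the absolute shift on a log axis, for the 2540 single-summit pairs and the 24753 other one-to-one pairs by their highest-ranking summit. The bars are centred on 0, and the single-summit curve ends at 108 bp while the other curve runs to 1994 bp.

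Narrow regions held their summit most closely. When the single-summit pairs were ordered by stage 10 width into groups of 635, the narrowest group (median width 111 bp) had a median shift of 2 bp, and 93.9% of its summits lay within 10 bp. The next groups, with median widths of 156, 210 and 302 bp, had median shifts of 5, 6 and 7 bp. In the widest group 65.2% of summits lay within 10 bp. An interval limits how far its own summit can move, so this order is in part built in. The signal level made less difference. From the lowest to the highest group by mean signal, the share within 10 bp was 75.4%, 74.5%, 76.4% and 81.6%.

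Single-summit pairs were narrow, and most widened slightly. At stage 10 the middle 50% of widths ran from 129 to 247 bp around a median of 184 bp. The stage 12 intervals had a median of 198 bp, with the middle 50% between 140 and 278 bp. Medians for the other one-to-one pairs were 636 and 750 bp. The stage 12 interval was wider in 1520 single-summit pairs, narrower in 821 and equally wide in 199. The median log2 ratio of widths was 0.064. A width at least 2-fold larger at stage 12 was found in 173 pairs, 6.81% of them, against a background of 7.23% over all one-to-one pairs. A width at least 2-fold smaller was found in 54, or 2.13%, against 0.989%. The width is part of the rule, the lists differ in depth, and nothing is read from these shares.

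Of the 1520 pairs that widened, 779 moved outward at both edges, 379 at the left edge alone and 362 at the right edge alone. Among all one-to-one pairs 19109 widened, with 11233, 3975 and 3901 in the same order. Over all single-summit pairs, the left edge moved outward by a median of 1 bp and the right edge by 1 bp, with 95th percentiles of 147 and 141 bp. The stage 12 interval enclosed the stage 10 interval in 1179 pairs (13943 of all 27293 one-to-one pairs). The reverse held in 540 (3871), and in 643 (9079) the intervals were staggered. The summit lay near the middle of its interval, at a median of 48.9% of the width at stage 10 (interquartile range 39.8% to 58.3%) and 49.4% at stage 12 (39.6% to 60.3%). In the other one-to-one pairs the interquartile range at stage 10 ran from 30.2% to 69.6%.

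**Figure D2:**
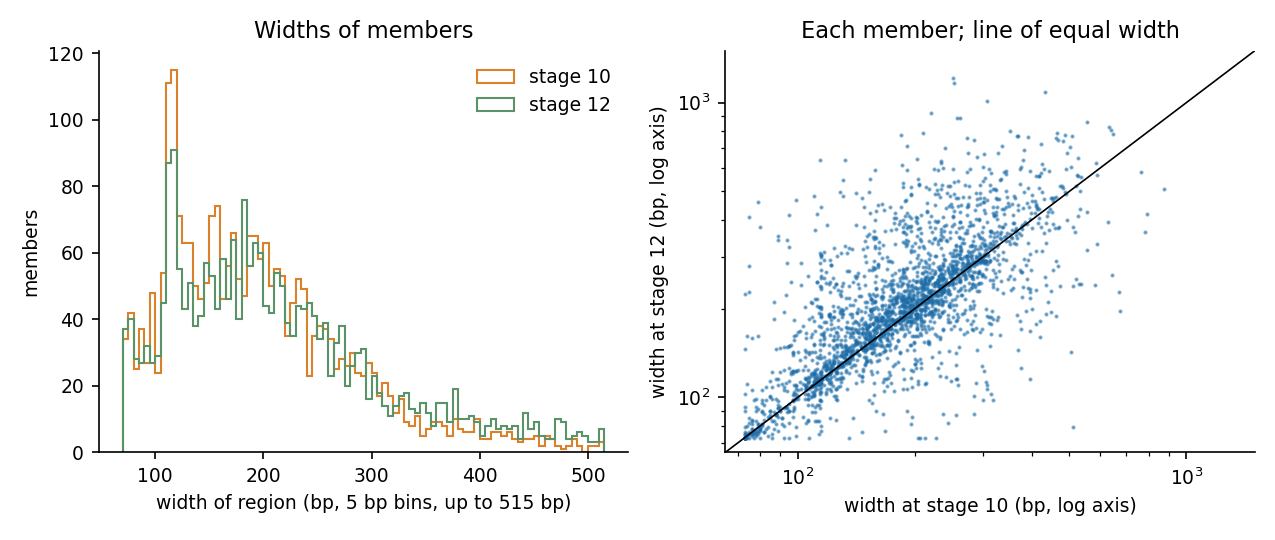
Widths of the single-summit pairs (labelled members). Left, number of pairs per 5 bp of width at stage 10 and stage 12. Right, stage 12 width against stage 10 width in bp on log axes, 1 point per pair, with the line of equal width. Both histograms peak in the bins around 115 bp, and more points lie above the line (1520) than below it (821).

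One width recurred at both stages. Exactly 115 bp was the most common width of single-summit pairs, with 73 at stage 10 and 62 at stage 12, while the other widths from 110 to 119 bp had medians of 17 and 11 pairs each. Of these, 43 pairs measured 115 bp in both lists. The width was not confined to these pairs, since 132 single-summit regions had it at stage 10 and 104 at stage 12. The 73 pairs of 115 bp at stage 10 had a median fold enrichment of 12.9 at stage 10 and 11.6 at stage 12. In all single-summit pairs it was 7.33 and 7.95. The pileups of these 73 were not higher at both stages, with medians of 33.6 and 26.2 floors, against 29.95 and 30.2 in all. Their local backgrounds were lower, with medians of 1.84 and 2.04 floors against 3.54 and 3.68. Their summits moved by a median of 2 bp. They stood farther from neighbours, with a median of 3916 bp to the nearest stage 10 region against 545 bp in all. The shortest width in either list, 73 bp, was held by 28 pairs at stage 10 and 31 at stage 12.

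Pairs with both edges at the same bases overlapped with this group. The start and the end were identical in 178 single-summit pairs, 7.01% of them, against a background of 1.47% over all one-to-one pairs. Their median width was 115 bp and their median shift 2 bp. The authors' score was at its maximum of 1000 at stage 10 in 66.3% of them, against 40.2% of the other single-summit pairs. Their median log2 signal ratio of stage 12 over stage 10 was -0.31, against 0.023 for the rest. Signal was at least 2-fold lower at stage 12 in 22 of the 178 (12.4%) and at least 2-fold higher in 5 (2.81%). Over all one-to-one pairs these shares were 2.72% and 15.2%, and over all single-summit pairs 6.34% and 4.80%.

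The signal over the floor was level between the stages in the middle of the distribution. The median pileup was 29.95 times the floor at stage 10 (5th to 95th percentile 14.5 to 76.7) and 30.2 times at stage 12 (13.0 to 75.7). The median log2 ratio was -0.00030, with an interquartile range of -0.40 to 0.40. Signal at least 2-fold higher at stage 12 was found in 122 single-summit pairs, or 4.80%, against a background of 15.2% over all one-to-one pairs. Signal at least 2-fold lower was found in 161, or 6.34%, against a background of 2.72%. The remaining 2257 lay between these limits. The pairs were chosen from the same lists, so these shares are a description.

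The other one-to-one pairs had a median log2 ratio of 0.53, from a median of 33.6 floors at stage 10 to 48.3 at stage 12. Pairs that went from 1 summit to several had a median of 0.45, and pairs that went from several to 1 had a median of -0.15. The zero point rests on the floors, but the gap between the groups does not. Scaling pileups to the median of all one-to-one pairs put the single-summit pairs at -0.48 and the others at 0.055. With that scaling 19 single-summit pairs were at least 2-fold higher and 476 at least 2-fold lower, or 0.748% and 18.7%, against 3.08% and 8.04% of all one-to-one pairs. In the deposited fold enrichment the medians were 0.071 and 0.45, with 38 at least 2-fold higher and 50 at least 2-fold lower. On that scale 4.83% of all one-to-one pairs were at least 2-fold higher and 0.359% at least 2-fold lower. The single-summit pairs were lower by 0.53 with pileups and by 0.37 with fold enrichment.

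The gap had the same direction at each level of mean signal. With the single-summit pairs in groups of 635 by their mean signal, the median log2 ratios from low to high were -0.11, -0.021, 0.041 and 0.11. Other one-to-one pairs within the same limits of mean signal had 0.13, 0.42, 0.54 and 0.63. The mean includes the stage 12 signal, and the rule asks for 1 summit at stage 12. These groups are therefore a description and no independent check of the gap. Over the whole groups, the authors' score followed the same order as the signal. At stage 10, 42.0% of the single-summit pairs had the top score of 1000, against 65.8% of the other pairs, and at stage 12 the shares were 70.4% and 92.1%. In the lowest group by mean signal the order was reversed at stage 10, with 13.2% against 11.1%. At stage 12 it was not, with 42.8% against 64.6%.

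**Figure D3:**
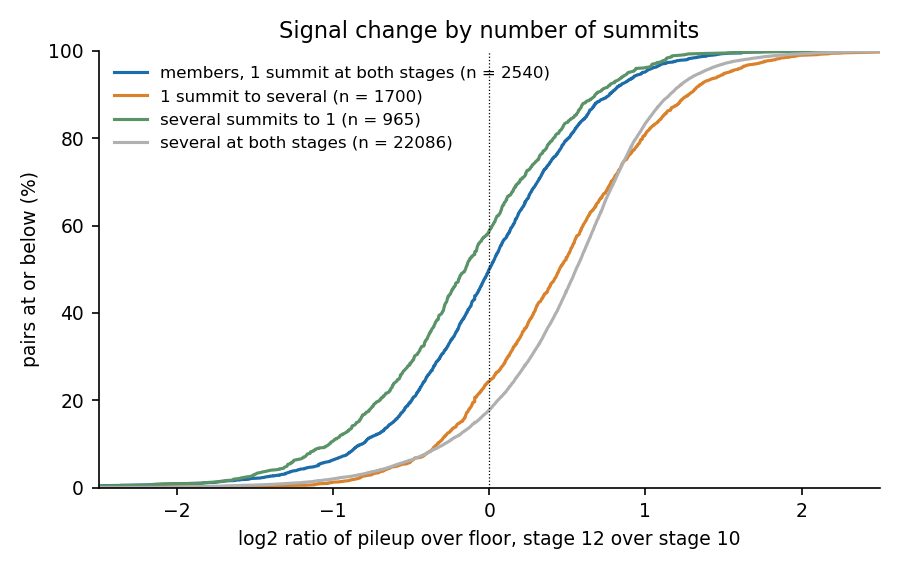
Signal change by the number of summits. Cumulative percentage of one-to-one pairs against the log2 ratio of pileup over floor, stage 12 over stage 10, for single-summit pairs (labelled members), pairs going from 1 summit to several, from several to 1, and with several at both. The axis ends at 2.5 on either side. The single-summit curve crosses 50% at 0, between the curve of pairs going from several to 1 (-0.15) and the curves of the remaining pairs (0.45 and 0.56).

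The largest increases are given for pairs whose local background was at most 3 floors at both stages, a limit met by 880 single-summit pairs and meant to leave aside sequence that collects reads broadly. The highest ratio was on chromosome 2L, 54152039 to 54152232 at stage 10 and 54151896 to 54152273 at stage 12. There the pileup went from 34 reads (15.4 floors) to 278 reads (59.1 floors), a ratio of 3.83, with the summit 6 bp away. Next came chromosome 2S, 52092894 to 52093346, from 37 to 242 reads with a ratio of 3.07, and chromosome 6L, 125569935 to 125570218, from 38 to 222 reads with a ratio of 2.74. The last were on chromosome 4L, at 23889100 to 23889301 and at 17491006 to 17491401, with ratios of 2.63 and 2.62. All 5 had a stage 12 region within 1 kb, at 98 to 935 bp. Of the 880 pairs under this limit, 42.7% had a stage 12 neighbour within 1 kb. The regions on 2L and 4L had stood 10581, 68579 and 150498 bp from the nearest stage 10 region.

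With the same limit on background, the largest decreases began from strong summits. Over all single-summit pairs, at any background, the lowest log2 signal ratio was -3.92. Under the limit the lowest ratio was on chromosome 3L, 137179106 to 137179246. There the pileup went from 267 reads (121 floors) to 102 reads (21.7 floors), 5.58-fold lower. On chromosome 3L, 4426189 to 4426513, it went from 197 to 82 reads, 5.12-fold lower. On chromosome 5L, 139950962 to 139951049, an interval of 88 bp with the same edges and the same summit base at both stages went from 440 to 206 reads, 4.56-fold lower. Chromosome 3S, 88129774 to 88129951, went from 489 to 258 reads and was 4.04-fold lower, and chromosome 6S, 224635 to 224805, went from 297 to 166 reads and was 3.82-fold lower. All 5 had the top score at both stages and fold enrichments of 35.6 to 92.5 at stage 10. In the 880 pairs under the same limit on background, 30.1% had the top score at both stages. Their median stage 10 fold enrichment was 9.42. At any background, 58.4% of the pairs at least 2-fold lower had the top score at both stages. The share was 35.6% in all single-summit pairs and 60.8% in all one-to-one pairs. The 161 pairs that were at least 2-fold lower had a median of 57.6 floors at stage 10, whereas the 122 that were at least 2-fold higher had 21.3. A high stage 10 pileup also lowers the ratio by construction.

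Most single-summit pairs lay beside another region. The median distance from edge to edge to the nearest other region of the same list was 545 bp at stage 10 and 425.5 bp at stage 12. The other one-to-one pairs had medians of 8955 and 5592 bp. Among them, pairs that went from several summits to 1 had medians of 998 and 880 bp. Pairs that went from 1 to several had 3958 and 1591.5 bp. Over all regions of each list the medians were 4810 and 4367 bp. A neighbour within 1 kb was present for 1534 single-summit pairs at stage 10 (60.4%) and 1647 at stage 12 (64.8%), against 24.5% and 29.7% of the other pairs. The shares were 50.1% and 51.7% in pairs from several summits to 1, and 34.5% and 45.1% from 1 to several. Over all regions of each list they were 36.2% and 34.0%. The closest neighbours stood 95 and 94 bp away, the shortest distances in the lists.

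The neighbours were larger than the single-summit regions but only slightly stronger. Within 1 kb, the nearest neighbour had a median of 2 summits at both stages and a median width of 425.5 bp at stage 10 and 491 bp at stage 12. Its pileup was the higher of the 2 in 63.4% of cases at stage 10 and 64.1% at stage 12, with median ratios of 1.17 and 1.24. It had a single summit itself in 29.1% and 25.2% of cases. Over all regions on chromosomes the shares with a single summit were 23.7% and 20.7%, and the median widths 498 and 569 bp. Neighbours on both sides within 1 kb were found for 197 pairs at stage 10 (7.76%) and 245 at stage 12 (9.65%). No share over all regions is set beside these counts, and nothing is read from them.

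**Figure D4:**
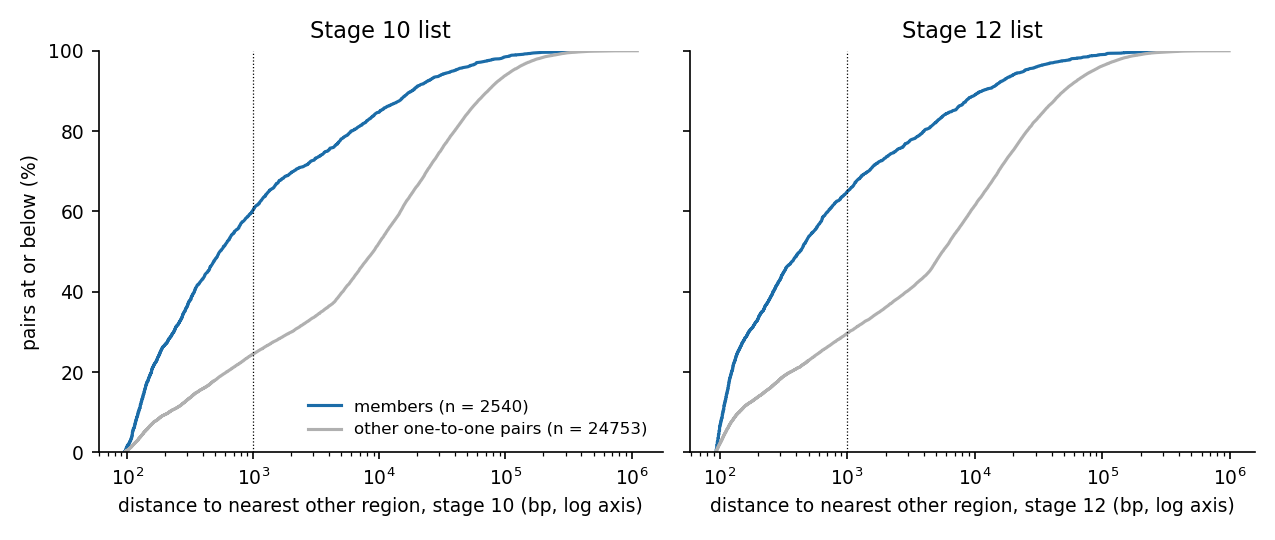
Distance to the nearest other region. Cumulative percentage of pairs against the edge-to-edge distance in bp on a log axis, in the stage 10 list and in the stage 12 list, for single-summit pairs (labelled members) and the other one-to-one pairs. The dotted line marks 1 kb, which 60.4% and 64.8% of the single-summit pairs and 24.5% and 29.7% of the others lie within.

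The signal ratio differed by setting. A neighbour stood within 1 kb at both stages for 1399 single-summit pairs, whose median log2 signal ratio was 0.077. For 248 pairs it was there at stage 12 alone, with a median ratio of 0.35, and 38 of them (15.3%) were at least 2-fold higher, a share close to the 15.2% of all one-to-one pairs but above the 4.80% of all single-summit pairs. For 135 pairs it was there at stage 10 alone, with a median of -0.40, of which 25 (18.5%) were at least 2-fold lower, against 2.72% of all one-to-one pairs and 6.34% of all single-summit pairs, and 0 at least 2-fold higher. The 758 pairs with no neighbour within 1 kb at either stage had a median of -0.17. The part of the neighbour in these values was not tested.

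Solitary single-summit pairs were few. Only 214 (8.43%) stood 10 kb or more from any other region at both stages, against 34.4% of the other one-to-one pairs. They had lower pileups, 18.6 floors at stage 10 and 16.4 at stage 12, over local backgrounds of 1.34 and 1.16 floors. Pairs with a neighbour within 1 kb at both stages had 33.1 and 35.1 floors over backgrounds of 4.48 and 4.81. The solitary pairs had the smaller summit shift, a median of 3 bp against 5 bp, and a median log2 signal ratio of -0.25. Other one-to-one pairs had the opposite order, with medians of 0.62 when solitary by the same limit and 0.37 with neighbours within 1 kb at both stages. Of the 214 solitary single-summit pairs, 26 (12.1%) were at least 2-fold lower at stage 12 and 5 (2.34%) at least 2-fold higher. Over all one-to-one pairs these shares were 2.72% and 15.2%, and in the other solitary pairs 1.61% and 18.2%.

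The 5 regions with an unmoved summit and the highest stage 10 −log10 p were solitary. Their local background was again at most 3 floors, and their stage 10 widths ran from 88 to 196 bp. The first was chromosome 8L, 7212183 to 7212311, 129 bp with identical edges at both stages. Its pileup was 735 reads (333 floors) at stage 10 and 1426 reads (303 floors) at stage 12, and its fold enrichment was 108 and 121. The region on chromosome 5L named above was second. Then followed chromosome 3L, 138390664 to 138390779, with 369 and 537 reads, chromosome 1L, 77684992 to 77685106, a 115 bp interval with 350 and 686 reads, and chromosome 3L, 4401648 to 4401843, with 308 and 236 reads. Their nearest stage 10 neighbours were 16214 to 56774 bp away. The limit on background also chose pairs farther from others, with a median stage 10 distance of 5311.5 bp in the 880 that met it. All 199 pairs with an unmoved summit had a median of 541 bp, against 545 bp in all single-summit pairs. In all 5 named regions the pileup over the floor was lower at stage 12, by 1.09-fold on chromosome 1L to 4.56-fold on chromosome 5L. A choice by a high stage 10 value favours a lower ratio by construction.

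Among pairs under the same limit on background, the largest shift was 80 bp toward lower coordinates on chromosome 3S, 118480536 to 118480747, where the pileup was 42 reads at stage 10 and 138 at stage 12. Shifts of 79 bp on chromosome 3L, 54034150 to 54034351, and of 75 bp on chromosomes 2L, 57007111 to 57007280, and 8L, 16046385 to 16046675, came next. The fifth, of 73 bp, was on chromosome 7L, 52843876 to 52844200. All 5 had a stage 10 neighbour within 451 bp, and their stage 10 pileups ran from 35 to 63 reads, around the median of 44 reads for the 880 pairs under this limit. Of the 880 pairs under this limit, 36.5% had a stage 10 neighbour within 1 kb. The 44 pairs shifted by over 50 bp, at any background, had a median stage 10 pileup of 61 reads, against 66 in all single-summit pairs. A neighbour stood within 1 kb at both stages for 56.8% of them, against 55.1% of all. The median stage 10 width of these 44 was 271 bp, against 184 bp in all single-summit pairs.

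The highest pileups among the single-summit pairs were far above these, and the regions carrying them were chosen for description after their values were seen. On chromosome 4S, 65103856 to 65103969, an interval of 114 bp at both stages with an unmoved summit had 15231 reads (6911 floors) at stage 10 and 9802 reads (2085 floors) at stage 12. On chromosome 8L, 96755418 to 96755715, the pileup was 14801 reads at stage 10 and 6709 at stage 12. Another region of the same chromosome, 96733614 to 96733810, had 3600 and 1206 reads. Local backgrounds of these regions were high, at 112, 339 and 95.6 reads at stage 10 and 73.1, 157 and 36.1 reads at stage 12. Their fold enrichments changed less than their pileups, from 134, 43.5 and 37.3 at stage 10 to 132, 42.5 and 32.6 at stage 12. Each of the 10 single-summit pairs with the most reads over the floor at stage 10 was lower over the floor at stage 12. By fold enrichment not all 10 were lower, with 34.7 at stage 10 and 44.9 at stage 12 on chromosome 3L, 143886680 to 143886916. A ranking by the stage 10 pileup favours a lower ratio by construction. In the highest group of 635 by mean signal of both stages, the median log2 ratio was 0.11.

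Single-summit pairs were somewhat more common on the L chromosomes. The frog is an allotetraploid whose chromosomes form 9 homeologous sets, each with a long (L) and a short (S) copy inherited from different ancestral species. The L chromosomes held 1567 of the single-summit pairs (61.7%) and 58.0% of the other one-to-one pairs. Across the 9 chromosome pairs, single-summit pairs made up on average 6.63% of stage 10 regions on L and 5.74% on S. The difference of 0.889 ± 0.890 percentage points (SD, n = 9 chromosome pairs) had L higher in 7 of 9 (p = 0.0156 in an exact permutation test that flips signs, two-sided, and 0.0469 after Benjamini-Hochberg adjustment over 3 tests). In the stage 12 list the shares were 4.76% and 4.29%, a difference of 0.464 ± 0.564 points (SD, n = 9), with L higher in 8 of 9 (exact permutation p = 0.0352, adjusted 0.0527).

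The difference was thus past the threshold of 0.05 at stage 10 only, and the 2 lists were not tested against each other. Leaving out any of pairs 3, 4, 5, 6, 7, 8 or 9_10 left a stage 10 difference of 0.682 to 0.950 points that missed the threshold, with adjusted p of 0.0586 to 0.0938 in exact permutation tests. Without pair 5, 6, 8 or 9_10 the difference itself stayed at 0.874 to 0.950 points, close to the full 0.889, with 8 units in the test in place of 9. Pair 3 had the largest gap, with 8.24% on 3L and 5.70% on 3S, and without it the value was 0.682 points. Units here are chromosomes and not embryos. The signal change did not differ detectably between L and S. The mean difference in median log2 ratio was -0.014 ± 0.067 (SD, n = 9 chromosome pairs), with L higher in 4 of 9 (exact permutation p = 0.539, adjusted 0.539).

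**Figure D5:**
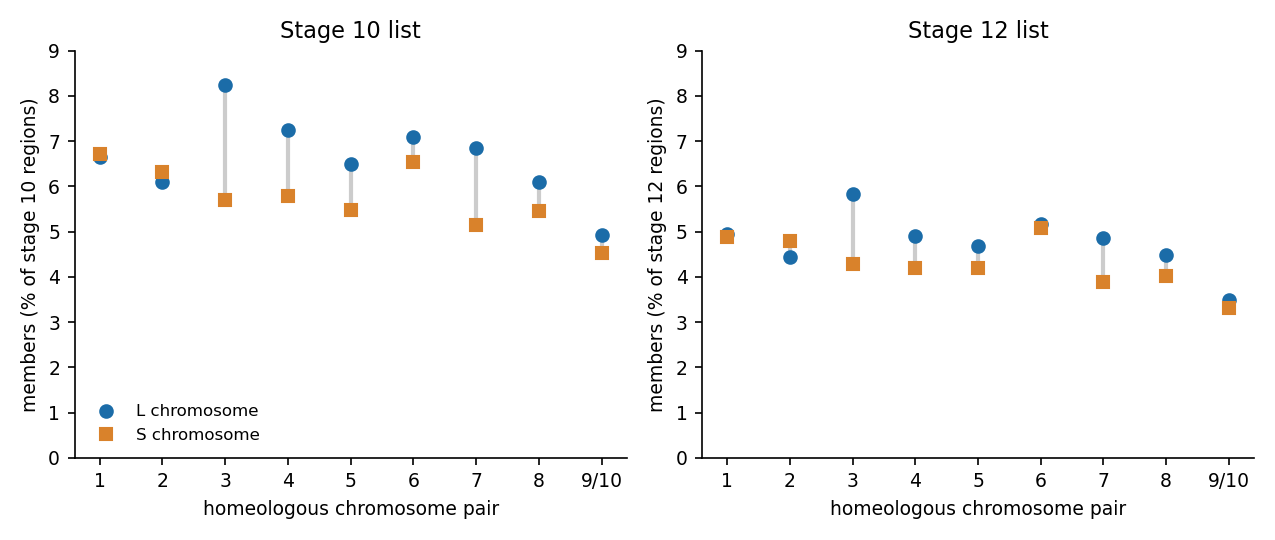
Share of regions that are single-summit pairs (labelled members), in percent of the stage 10 list and of the stage 12 list, on the L and the S chromosome of each homeologous pair. Grey bars join the 2 chromosomes of a pair. L lies above S in 7 of 9 pairs at stage 10 and in 8 of 9 at stage 12, with the widest gap in pair 3.

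The pairs were unevenly placed along chromosomes. Their density was highest on 3L, at 1.81 per Mb, and lowest on 9_10S, at 0.747 per Mb. The last 10% of chromosome length, up to the last listed region, held 17.4% of the single-summit pairs and 12.3% of the other one-to-one pairs. The first 10% held 12.2% and 12.1%. The outermost 5 Mb at either end held 378 single-summit pairs, 14.9%, against 11.3% of the other pairs. The narrowest group of 635 by stage 10 width carried this excess, with 25.8% in the outermost 5 Mb, while the wider groups had 11.5%, 10.4% and 11.8%. The share was 47.9% of the 73 pairs of 115 bp and 41.0% of the 178 pairs with identical edges. These shares are a description with no test.

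A few windows of 1 Mb held many. Of 2516 windows, 1237 held none and 655 held 1, while 9 windows held 10 or more. The window from 129000001 to 130000000 on chromosome 3L held 28, which is 42.4% of its 66 one-to-one pairs, against 9.31% on all chromosomes. Their median stage 10 width was 137 bp, and their median log2 signal ratio was -0.14. A neighbour within 1 kb at both stages was present for 25 of them, against 55.1% of all single-summit pairs. The adjoining window from 128000001 held 16, and the windows of 3L starting at 131000001 and 136000001 held 12 and 17. These were 35.6%, 31.6% and 21.8% of their one-to-one pairs. The 4 windows were dense in regions, with 93, 65, 59 and 114 at stage 10, of 3166 on the 144167402 bp of 3L. The first 1 Mb of chromosome 8L held 13, or 19.7% of its one-to-one pairs, and listed 82 stage 10 regions. All 13 were lower over the floor at stage 12, with log2 ratios from -2.04 to -0.049. Of all single-summit pairs, 50.0% were higher over the floor at stage 12. The windows were picked by their number of single-summit pairs, and no test was made. Among neighbouring single-summit pairs of the same chromosome the median distance was 413 kb, and 129 of 2522 such distances were under 1 kb.

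The width limit decided little. Of 2542 one-to-one pairs with a single summit at both stages, 2 exceeded 1500 bp. They were on chromosome 9_10S, 101649713 to 101649976 at stage 10 and 1551 bp wide at stage 12, and on chromosome 5S, 27905697 to 27905854 at stage 10 and 1678 bp wide at stage 12. Just inside the limit were pairs on chromosomes 4L, 5S and 1L with stage 12 widths of 1215, 1168 and 1087 bp, from 251, 252 and 432 bp at stage 10. Their summits had moved by 11, 1 and 7 bp.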

How the data were processed

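The 6 libraries fall into stage 10 and stage 12 by their titles, with 3 each, and the labels name 1 list per stage. Per the submitters' processing notes, the genome build was xenLae2 and bcl2fastq 2.20 was used. The aligner, the peak caller, read filters, any shift for the Tn5 cut and whether replicates were pooled are not given in the sources used here. The deposited lists have 10 columns in narrowPeak order and no header. The deposited score, from 540 to 1000, is the authors' value per interval, and how they made it is not given in the sources used here. The deposited fold was read as a ratio of pileup to local background, a form inferred from the values and not stated by the authors. The deposited −log10 p belongs to the summit, and the last column is the offset of the summit. The column in the place of −log10 q was not used. Depth per library is unknown.

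Each distinct interval was kept as 1 region and took the values of its summit with the highest −log10 p. The pileup and background were the whole-number solution of (pileup + 1) / (background + 1) = fold and a Poisson upper tail equal to the deposited p, accepted within 0.01 of −log10 p for 99.95% of stage 10 and 99.93% of stage 12 rows. The closest solution was used for the others. The solver, the pairing and the sign-flip test were tested on simulated data. Starts were converted to 1-based coordinates, and the chromosome length is the end of its last region. The tests are exact sign-flip permutation tests over 9 chromosome pairs, with Benjamini-Hochberg adjustment over 3 tests. Everything else is description.

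Named regions are, among pairs with a local background of at most 3 floors at both stages, the 5 with the highest and the 5 with the lowest signal ratio, the 5 with the largest shift and the 5 with a shift of 0 bp and the highest stage 10 −log10 p, and up to 3 pairs on either side of the width limit, whatever their background. The single-summit pairs and these rules were chosen with earlier results of these data known. Python 3.11.15, numpy 2.4.6, pandas 2.3.3 and scipy 1.17.1 were used.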

Additional observations from a re-analysis of the deposited data

Results flagged for a closer look

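Regions on unplaced scaffolds lie outside the comparisons above. They held 414 pairs that met the same rule, on 208 scaffolds, or 12.3% of the 3360 one-to-one pairs there, against 9.31% on chromosomes. Their median summit shift was 3 bp, with 86.0% within 10 bp, and their median widths were 169 and 172 bp. Their median log2 signal ratio was -0.16. On chromosomes the corresponding values were 5 bp, 77.0%, 184 and 198 bp, and -0.00030. The scaffold pairs had their highest pileups at 2344 floors at stage 10 and 1141 floors at stage 12.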

How the results depend on the processing

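No paired analysis was possible because replicates have no values of their own in the combined lists, and leaving out replicates could not be run either. Of the alternatives, 58 values kept to their limits (for a median, its 95% binomial interval) and 14 moved outside them. Another 9 missed the test threshold that the main setting had passed, 2 passed it where the main setting had not, and 2 changed sign. With at least 50% mutual overlap the median log2 width ratio was 0.044. With the top score in both lists there were 903 single-summit pairs, and the median log2 width ratio was 0.026, the log2 signal ratio -0.073 and the neighbour distances 377 and 320 bp. To the nearest region of either list the distance was 319 bp. The log2 signal ratio was -0.086 with backgrounds of at most 3 floors, 0.071 by deposited fold enrichment and -0.48 when scaled to all one-to-one pairs. In groupings chosen after the data were seen, it was -0.25 for solitary pairs, with a shift of 3 bp, and 0.077 for those with a neighbour within 1 kb. The L minus S share of stage 10 regions was 0.744 points under 500 bp (adjusted p = 0.0820, exact permutation) and 0.769 with 50% overlap (adjusted p = 0.0703, exact permutation), and it ran from 0.682 to 1.03 without single chromosome pairs. At stage 12 it ran from 0.329 to 0.567, was past the threshold without pair 2 (0.567, adjusted p = 0.0234, exact permutation), and with the top score was 0.426 (adjusted p = 0.00586, exact permutation). The L minus S signal difference changed sign, to 0.064 with the top score and 0.0076 with low backgrounds, and was not past the threshold in any alternative. What moved these values was not tested. With 1 list per stage, depth and stage cannot be told apart where the floors fail as a measure of depth.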
